A study of Mus musculus with 11 samples.

Results

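The comparison set newly made RNA beside total RNA in C2C12 cells, a mouse myoblast line that was grown to confluence after infection with an adenovirus carrying a scrambled short hairpin under a U6 promoter. It used 5 of the 11 libraries of the series: 2 of RNA labelled with 4-thiouridine (4sU RNA) and 3 of total RNA, chosen by the hairpin in the deposited file names. For the 4sU RNA, 300 µM of 4-thiouridine, a uridine analogue, was given for 30 min, and the RNA that had taken it up was biotinylated and pulled down with streptavidin. For the total RNA, a part of the harvest was set aside and ribosomal RNA was removed. In every group of the series the cells had received an adenovirus at a multiplicity of infection of 100, so no uninfected cells stand behind the values. By the deposited file names, the other libraries came from cells given a hairpin against Zc3h10. This is the zinc finger gene whose part in mitochondria, iron and cardiolipin the series addresses.

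The names of the total RNA libraries conflict. The 3 used here carry the scramble name in their files, while their titles and genotype labels name the Zc3h10 hairpin. Zc3h10 itself, in plain exonic CPM (its count relative to the library total, the trimmed-mean scaling left out), stood at 67.7, 108 and 56.6 in these 3 libraries and at 48.2, 53.7 and 37.8 in the 3 total RNA libraries titled scramble. The libraries used here were therefore the higher set for the hairpin's target, with no overlap. For the genes and lists described below, a call, count or median that changed when the other 3 total libraries took their place is given beside the result.

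The amount of an RNA in a cell reflects how fast it is made and how long it lasts. RNA recovered after a short 4sU pulse is enriched for recent transcripts, so an RNA that is replaced quickly makes up a larger share of 4sU RNA than of total RNA, and a long-lived RNA makes up a smaller share. The ratio is relative: it has no spike-in here, it says nothing of absolute half-lives, and its 0 is set by the normalisation. Messages for transcription factors and signalling proteins are known for fast replacement, and messages for metabolic enzymes and structural proteins for slow replacement.

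Exonic counts per library were 19690198 and 13611004 for 4sU RNA and ran from 48015125 to 54075687 for total RNA. Introns, taken here as a mark of RNA not yet spliced, took 67.9% and 68.4% of the gene counts in 4sU RNA. In total RNA they took 13.8%, 10.7% and 11.2%, so the kinds of RNA did not overlap. The 8 myoblast markers were all detected, with sums, on the same plain scale, of 2200 to 2210 (4sU) and 3150 to 4140 (total). The 5 adipocyte markers each had fewer than 10 counts in every library, and their sum stayed at or below 0.406. The 6 matched macrophage markers had sums of 26.4 to 30.3 (4sU) against 2.81 to 4.16 (total). Most of that was Cd68, with 517 and 273 counts in 4sU RNA and 100, 105 and 142 in total RNA, while Adgre1 and Lyz2 had fewer than 10 counts in every library. Ptprc, the general leukocyte marker, had 0 and 8 counts in 4sU RNA and 5, 6 and 12 in total RNA. The 5 osteoblast markers had sums of 6.47 to 9.09 (4sU) against 2.0 to 4.08 (total), and the 5 endothelial markers of 1.32 to 2.28 against 0.935 to 1.41. The 6 matched myotube markers summed to 76.9 to 107 and to 66.2 to 165, so the groups overlapped. The part of other cell types in the ratios was not tested, and in bulk RNA fewer cells of a type cannot be told apart from less RNA per cell.

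Of 14606 genes tested in exons, 4308 (29.5%) were higher in 4sU RNA and 4345 (29.7%) lower by edgeR's quasi-likelihood test at a Benjamini-Hochberg adjusted p below 0.05. At least 2-fold differences were called for 3521 genes upwards (24.1%) and 3621 downwards (24.8%). The median log2 ratio was 0.01, with quartiles at −1.10 and 1.08. Scaling by total counts only, without the trimmed mean of M values, moved that median by 0.99 and the split to 7759 higher and 1843 lower, so the sign of a ratio near 0 depends on the scaling. All log2 ratios below are on the trimmed-mean scale, 4sU minus total, and levels are CPM on that scale unless called plain. The groups did not overlap for 74.8% of genes. Between replicates, the chi-square per degree of freedom in exons was 125 to 459 for total RNA and 19.2 for 4sU RNA. The first and second total libraries gave 125, and the pairs with the third gave 330 and 459, so the third stood apart. Exonic calls in either direction numbered 8653 with it and 9810 without it. In introns it was 10.1 to 18.5 for total RNA and 12.8 for 4sU RNA. This measure grows with depth, and total RNA had more exonic counts, so it does not rank the spread of the kinds of RNA. Whether the replicates were separate cultures is not in the labels; if they were not, the p-values cover technical spread alone.

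The same contrast in the 6 other libraries, 3 of 4sU RNA and 3 of total RNA, shares no library with this one. Of 8390 genes called here and tested in both, 98.4% had the same sign there and 84.5% were also called in that direction, while 3 were called in the opposite one. The hairpin difference in the ratio, over all 11 libraries, was called for 0 of 15046 genes by edgeR, and 1707 (11.3%) had an unadjusted p below 0.05. Pearson's r of the exonic ratios across 13735 genes was 0.92, given as a description since genes are not independent replicates.

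**Figure D1:**
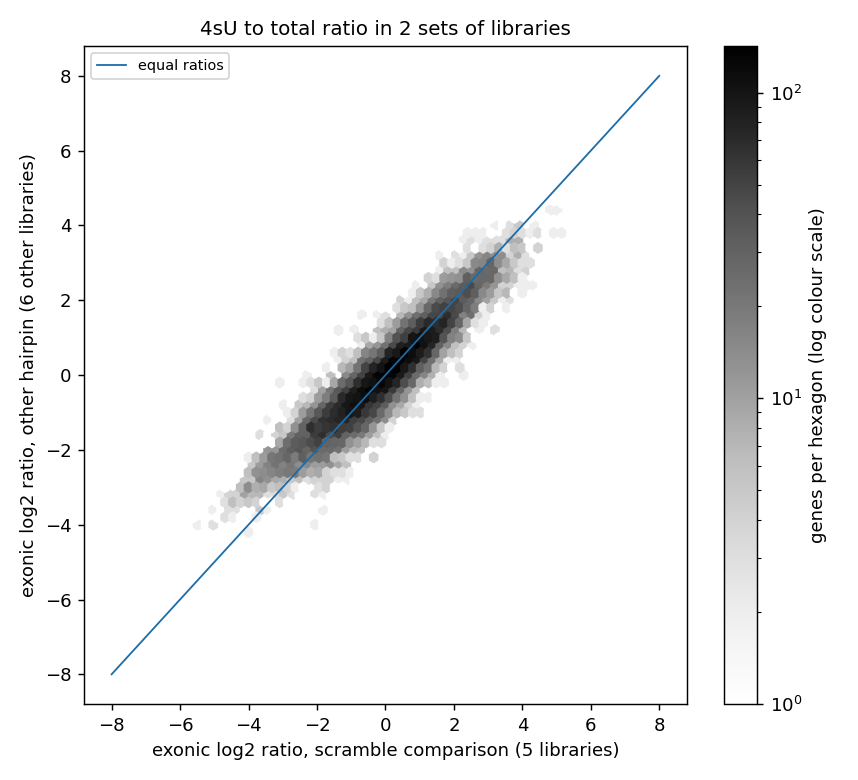
Exonic log2 ratio of 4sU to total RNA in the scramble comparison (x axis, 5 libraries) and in the other 6 libraries (y axis), as hexagons shaded by the number of genes on a log colour scale, with the line of equal ratios. Most of the 13735 genes lie along the line, in a band slightly flatter than it. The quartiles over all genes tested were −1.10 and 1.08 in the first comparison and −0.94 and 0.96 in the second.

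The 12 genes named with the highest ratios among well-expressed genes were led by Epm2aip1, a gene without introns whose protein binds laforin. Its exons stood at 337 and 395 CPM in 4sU RNA and at 11.8, 10.3 and 14.0 CPM in total RNA, a log2 ratio of 4.93 (SE 0.27, adjusted p = 1.76e-05). Polr2a, the largest subunit of RNA polymerase II, stood at 876 and 727 CPM in 4sU RNA against 35.5, 30.4 and 47.2 CPM in total RNA, a log2 ratio of 4.41 (SE 0.29). Both genes were far higher in each 4sU library than in any total library. Spen, a nuclear repressor that binds RNA, stood at 133 and 124 CPM against 11.7, 7.02 and 9.86 CPM, a log2 ratio of 3.76 (SE 0.27).

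Next among the 12, Hnrnpa3, a heterogeneous nuclear ribonucleoprotein, stood at 290.0 and 205 CPM in 4sU RNA and at 29.4, 19.3 and 12 CPM in total RNA, a log2 ratio of 3.61 (SE 0.36). Ncl, which encodes nucleolin, had a log2 ratio of 3.40. Neat1, the long non-coding RNA that builds paraspeckles, stood at 528 and 416 CPM against 85.3, 32.3 and 18.9 CPM, a log2 ratio of 3.37 (SE 0.52). Its total libraries spread widely among themselves yet stayed below both 4sU libraries. Also named were Vamp2, a vesicle fusion protein (3.70), Parp4, an ADP-ribosyltransferase (3.61), Sertad4 (3.47), Proser1 (3.44) and Lars2, the mitochondrial leucyl-tRNA synthetase (3.43). All 12 had adjusted p-values between 1.76e-05 and 0.000317, and all 12 were also higher in the other libraries, at log2 ratios of 1.73 to 4.39.

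The 12 genes named with the lowest ratios were led by Tmem132a, a membrane protein. It was at 55.5 and 72.6 CPM in 4sU RNA and at 2780, 3960 and 4750 CPM in total RNA, a log2 ratio of −5.90 (SE 0.42, adjusted p = 1.76e-05). Mrps21, a protein of the small mitochondrial ribosomal subunit, was at 4.21 and 4.23 CPM against 150, 187 and 421 CPM, also −5.90 (SE 0.53). Ppic, cyclophilin C of the endoplasmic reticulum, was at 71.5 and 69.8 CPM against 2280, 3180 and 4520 CPM, a log2 ratio of −5.56 (SE 0.42). The 4sU libraries of these genes lay close together, and the spread sat in the total libraries, where replicate 3 was highest for all 3 genes.

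Cox6a1, a subunit of cytochrome c oxidase, was at 15.4 and 16.8 CPM in 4sU RNA and at 299, 334 and 1370 CPM in total RNA, a log2 ratio of −5.38 (SE 0.73). Mmp2, a matrix-degrading protease, had a log2 ratio of −5.13, Ahcy, which hydrolyses S-adenosylhomocysteine, one of −5.06, and Rcn3, a calcium-binding protein of the secretory pathway, one of −5.03. Eif3i, a subunit of translation initiation factor 3, had −4.95, Mgst3, a microsomal glutathione transferase, −4.94, and Hax1, a mitochondrial anti-apoptotic protein, −4.94. Tmem242 (−5.04) and Fopnl (−4.78), a centrosomal protein, complete the 12. Ratios in the other libraries ran from −4.86 to −3.39, lower in size than here for every one of the 12. Those genes were chosen for their size in the libraries used here, so this is not read as a difference between the sets.

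**Figure D2:**
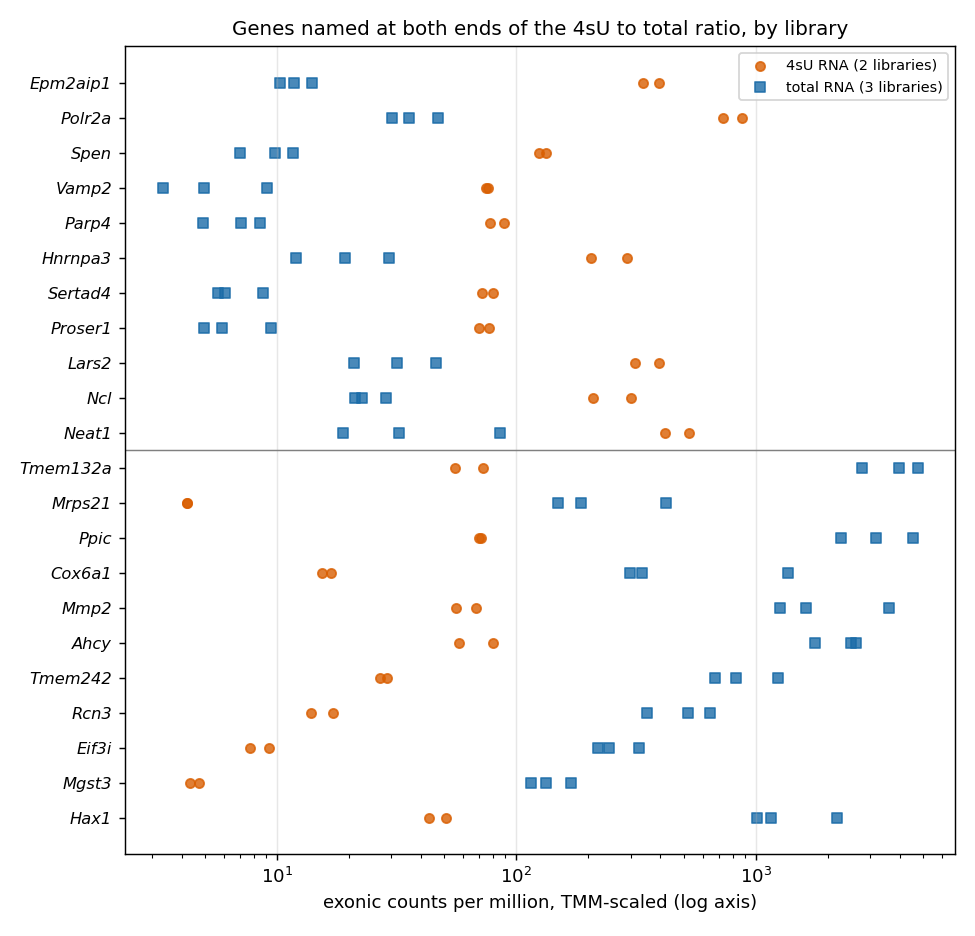
Exonic CPM (log axis) of 11 of the 12 genes at each end, those with the largest ratios, with 1 circle per 4sU library and 1 square per total library. The 4sU circles of the upper 11 lie to the right of all their squares, as for Polr2a at 727 to 876 against 30.4 to 47.2, and those of the lower 11 to the left, as for Tmem132a at 55.5 to 72.6 against 2780 to 4750.

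The transcripts of the named genes differed in length between the ends. In GENCODE M21, the 12 high-ratio genes had transcripts of 1654 to 20771 bases (median 5962) and the 12 low-ratio ones of 488 to 3657 bases (median 1271). Across 13811 protein-coding genes in 5 equal groups by transcript length, the median log2 ratio was −0.51, −0.38, −0.15, 0.08 and 0.44 from the shortest to the longest group. Genes called at least 2-fold higher in 4sU RNA had a median of 865 uridines per transcript against 589.5 in those at least 2-fold lower and 737 over all genes. Uridine is the base that 4sU replaces; uridine number, transcript length and the ratio moved together here, and the part of uridine number in the ratio was not tested. Spearman's rho across these genes, as a description, was 0.20 for transcript length, 0.21 for uridine number and −0.22 for GC content.

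**Figure D3:**
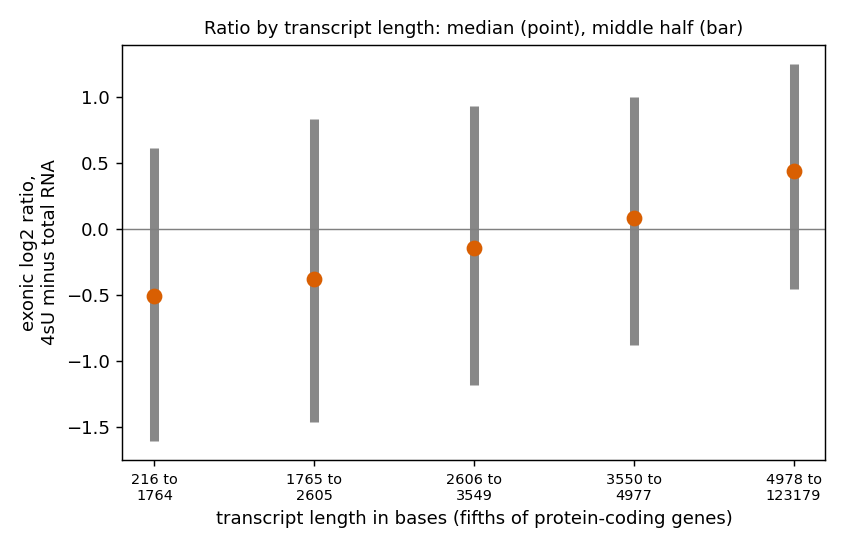
Exonic log2 ratio of 4sU to total RNA by transcript length, in 5 equal groups of protein-coding genes. Points are medians and bars run from the lower to the upper quartile; the medians rise from −0.51 to 0.44, while the bars of all groups overlap.

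Gene classes were described by 43 lists, each set beside the 29.5% of all genes called higher and the 29.7% called lower. With total-count scaling the medians of 15 lists between −0.88 and −0.16 changed sign, and the count called lower was 10 in place of 18 for the tricarboxylic acid cycle, 13 in place of 27 for the cytoskeleton and 21 in place of 48 for ribosomal proteins. With the other total libraries 21 of the 43 medians, relative to all genes, moved by more than the spread over library pairs. In the lists described next, the members were counted by the same test over all genes.

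**Figure D4:**
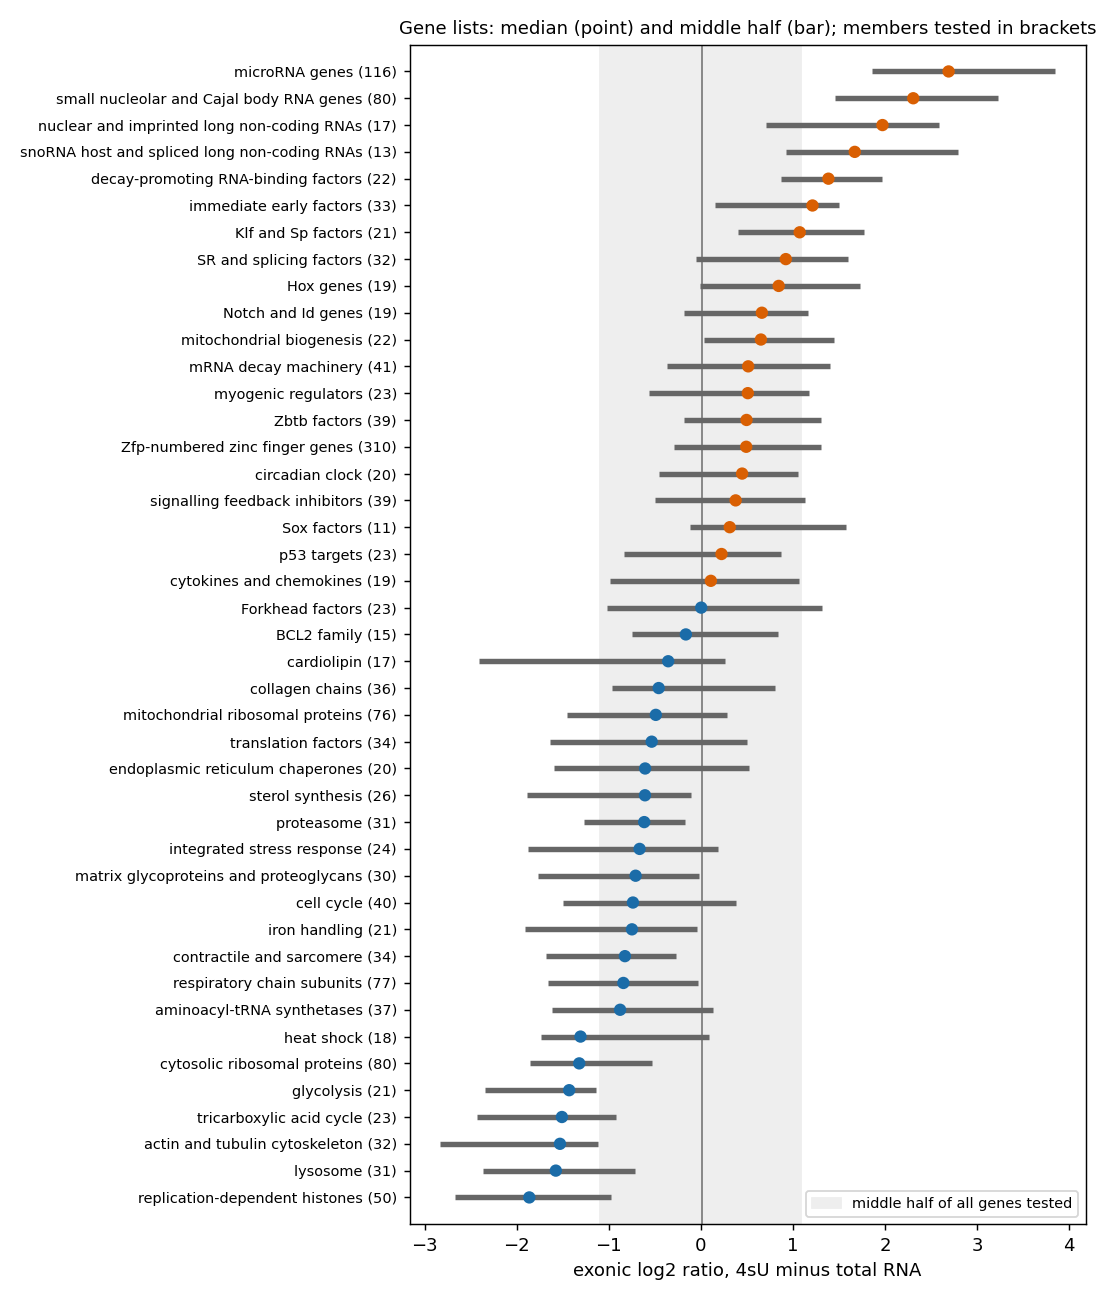
Median exonic log2 ratio (point) and range from the lower to the upper quartile (bar) of the tested members of 43 gene lists, with the number tested in brackets; the shaded band is the same range over all 14606 genes. The tricarboxylic acid cycle (−1.51) lies left of the band's centre and decay-promoting RNA-binding factors (1.39) right of it. For microRNA and small nucleolar RNA genes and histones the members shown were partly kept by the filter for being high in 1 group, so their place in the order is not read; with total-count scaling the medians between −0.88 and −0.16 change sign.

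Immediate early factors, transcription factors that are switched on within minutes of a stimulus, had 23 of 33 tested members higher in 4sU RNA and 1 lower, with a median log2 ratio of 1.21. Fosb, an AP-1 subunit, stood at 41.5 and 43.8 CPM in 4sU RNA against 3.42, 2.04 and 3.17 CPM in total RNA, a log2 ratio of 3.89 (SE 0.28). Egr3, a zinc finger factor, stood at 174 and 141 CPM against 22.1, 21.8 and 22.2 CPM, a log2 ratio of 2.84 (SE 0.22), and Nr4a3, an orphan nuclear receptor, had 3.51 (SE 0.51). Without the first 4sU library 11 were called higher and 2 lower and the median was 0.77; 4 were lower without the third total library and 2 with the other total libraries. Mafk, a small Maf protein, was lower at −1.26 (SE 0.24), and lost its call with the other total libraries and with total-count scaling.

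Some classical members, named here after their values were seen, had no call or a smaller ratio. Fos, the AP-1 subunit, stood at 144 and 135 CPM in 4sU RNA and at 251, 252 and 131 CPM in total RNA, a log2 ratio of −0.60 (SE 0.32, adjusted p = 0.12), so its groups overlapped. Junb had −0.51 (adjusted p = 0.16) and Ier2 0.36 (adjusted p = 0.43). With the other total libraries Fos (−1.17) and Junb (−1.67) were called lower, and without the third total library Fos (−0.85) and Junb (−0.64) were called lower and Ier2 (0.87) higher. Myc, a growth regulator, was higher, at 835 and 750 CPM against 363, 211 and 306 CPM, a log2 ratio of 1.43 (SE 0.29, adjusted p = 0.0016). Egr1 was also higher, at 1330 and 1260 CPM against 226, 161 and 789 CPM, a log2 ratio of 1.72 (SE 0.55, adjusted p = 0.020), with total replicate 3 well above the others. The call for Egr1 was lost with DESeq2 and without the first 4sU, the second 4sU or the first total library, and its ratio was 2.75 without total replicate 3 and 2.83 with the other total libraries; that of Myc was then 2.47.

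Krüppel-like and Sp factors, which bind GC-rich promoters, had 13 of 21 tested members higher and 1 lower (2 without the first total library), with a median of 1.07 (1.44 with the other total libraries). Klf7 stood at 50.2 and 74.7 CPM in 4sU RNA against 5.77, 3.86 and 3.03 CPM in total RNA, a log2 ratio of 3.89 (SE 0.32). Klf5 stood at 62.1 and 42.8 CPM against 4.47, 2.45 and 3.80 CPM (3.88, SE 0.31). Klf3, a repressor, had 3.09 (SE 0.26). The wider zinc finger family, the Zfp-numbered genes, had 130 of 310 higher and 53 lower with a median of 0.49; the lower count was 27 without the first 4sU library and 31 without the second.

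Inhibitors of signalling, which cut short the pathways that induce them, had 16 of 39 higher, 4 lower and a median of 0.38; the lower count was 2 without the first 4sU library and 1 without the second. Spry4, an inhibitor of receptor tyrosine kinase signalling, stood at 39.2 and 39 CPM in 4sU RNA against 6.07, 5.78 and 4.72 CPM, a log2 ratio of 2.82 (SE 0.23). Skil, a repressor of TGF-beta signalling, had 2.53 and Dusp16, a MAP kinase phosphatase, 2.45. Notch and Id genes had 10 of 19 higher and 3 lower; the higher count was 4 without the first 4sU library, 5 without the second and 6 without the first total library, and the lower count was 1 with either 4sU library left out. With the other total libraries 6 were higher and the median was 0.21 in place of 0.66. Hes6, a Notch pathway factor, was among the lower at 1.64 and 1.75 CPM against 13.1, 25.3 and 30.5 CPM, a log2 ratio of −3.76 (SE 0.41).

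Genes that act on RNA were described by 3 lists. Of 22 RNA-binding factors that promote decay, 18 were higher and 1 lower, with a median of 1.39. Hnrnpd, which encodes AUF1, a binder of AU-rich elements, stood at 58.5 and 44.8 CPM in 4sU RNA against 5.77, 4.59 and 6.58 CPM, a log2 ratio of 3.19 (SE 0.26). Btg1, which recruits the CCR4-NOT deadenylase, had 2.47 and Khsrp, another binder of AU-rich elements, 2.44. Zfp36l1 was the 1 lower member, at −1.75 (SE 0.40), and that call was lost without the second 4sU library and with total-count scaling. Its relative Zfp36, named after its value was seen, stood at 48.6 and 38.3 CPM against 33.2, 33.0 and 65.9 CPM, so the groups overlapped; with total-count scaling it was called higher, at 1.02.

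The mRNA decay machinery showed both directions, with 17 of 41 higher, 6 lower and a median of 0.51. Lsm1, of the complex that precedes decapping, was higher at 2.20 (SE 0.26), Upf3b, of nonsense-mediated decay, at 1.98 and Edc3, a decapping enhancer, at 1.95. The exosome subunits Exosc2 (−2.99) and Exosc10 (−2.83) and the deadenylase Cnot8 (−2.99) were lower. Splicing factors had 16 of 32 higher and 5 lower, with a median of 0.92. Srsf4 had 2.54 and the kinase Clk4, which phosphorylates SR proteins, 2.48, while Hnrnpl was lower at −1.97. Without the first 4sU library 1 splicing factor was called lower, and 2 without the second or with the other total libraries.

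Nuclear and imprinted long non-coding RNAs had 13 of 17 tested members higher and 1 lower, with a median of 1.97 (1.44 with the other total libraries). Summed over all 18 matched members with no filter, they stood at 14500 and 14300 CPM in 4sU RNA and at 3980, 2610 and 2070 CPM in total RNA. Malat1, the abundant nuclear speckle RNA, made up most of that, at 11700 and 11300 CPM against 2990, 1590 and 1170 CPM (log2 ratio 2.59, SE 0.39). Jpx, an activator of Xist, had 3.23 (SE 0.27). H19, an imprinted RNA of fetal tissues, was lower, at 319 and 188 CPM against 509, 686 and 427 CPM (−1.09, SE 0.33), and lost its call without the second 4sU library and with total-count scaling.

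The list of small nucleolar RNA hosts and spliced long non-coding RNAs, not all of them hosts, had 9 of 13 higher and 2 lower. Snhg1 stood at 160.0 and 176 CPM in 4sU RNA against 31.0, 19.5 and 18.2 CPM, a log2 ratio of 2.87 (SE 0.28), and Snhg6 had 3.25. The 2 lower members were the RNA components of ribonuclease complexes, which act as stable RNAs rather than as hosts. Rmrp, of the mitochondrial RNA processing ribonuclease, had 7 and 4 counts in 4sU RNA against 169, 227 and 179 counts in total RNA, a log2 ratio of −4.48 (SE 0.41). Rpph1, of ribonuclease P, had 25 and 25 counts against 349, 723 and 584, a log2 ratio of −3.81 (SE 0.41).

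Genes for small nucleolar and Cajal body RNAs, which guide RNA modification, passed the filter in 80 of 106 cases, and 46 of these passed through the 4sU libraries only, so their count of calls is no support. Summed over all 106 without a filter, they stood at 352 and 371 CPM in 4sU RNA and at 84.4, 70.3 and 80.7 CPM in total RNA, with no overlap. Snord111 had 41 and 37 counts in 4sU RNA and 3, 3 and 0 in total RNA. The deposited counts do not tell the mature small RNA from a precursor that spans it.

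The counts of microRNA genes cover the entry under each gene's name, not the mature microRNA, and 14 of them also had tested introns. Of 521 matched genes 116 passed the filter, 77 of them through the 4sU libraries only, so their count of calls is no support. Summed over all 521, they stood at 552 and 583 CPM in 4sU RNA and at 194, 191 and 178 CPM in total RNA. Mir365-2 had 19 and 19 counts in 4sU RNA and 0 in each total library, Mir3108 had 16 and 12 against 0, and Mir698 had 17 and 10 against 0. These 3 are shown because no total library held a read of them. They could pass the filter through the 4sU libraries only, so their direction is no support. Their mature sequences from RefSeq (GRCm38.p6), with the seed, bases 2 to 8 and the part that pairs with targets, in capitals, were:
mmu-miR-365-2-5p: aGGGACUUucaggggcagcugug
mmu-miR-365-3p: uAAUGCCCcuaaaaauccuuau
mmu-miR-3108-5p: gUCUCUAAagcuagacguuccgg
mmu-miR-3108-3p: cGUCUAGGucuagagucucaa
mmu-miR-698-5p: uGUGGGUGggacagggauguu
mmu-miR-698-3p: cAUUCUCGuuuccuucccu
No seed is shared among them. MicroRNA genes that were lower in 4sU RNA numbered 3, Mir1941, Mir3057 and Mir25, and each lost its call with the other total libraries. Mir1941 stood at 202 and 157 counts in 4sU RNA and at 1094, 1424 and 1423 in total RNA.

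None of the 23 tricarboxylic acid cycle genes was called higher in 4sU RNA and 18 were lower, with a median log2 ratio of −1.51. Sdhc, a membrane anchor of succinate dehydrogenase, stood at 30.9 and 23.5 CPM in 4sU RNA against 531, 678 and 403 CPM in total RNA, a log2 ratio of −4.30 (SE 0.36). Pdhb, of the pyruvate dehydrogenase complex, had −3.71 and Sucla2, a subunit of succinyl-CoA ligase, −3.40. DESeq2 also called 0 higher, and leaving out the first total library, the replicate block or total-count scaling gave 1. Of 21 glycolytic genes 16 were lower and 2 higher, with a median of −1.43; 1 was higher without the first 4sU library or with the other total libraries, and 9 were lower with total-count scaling. Gpi1, glucose phosphate isomerase, stood at 131 and 156 CPM against 1220, 1210 and 1160 CPM (−3.06, SE 0.29). Pfkfb3, which makes the activator of phosphofructokinase, ran the other way, at 14.1 and 15.5 CPM against 3.14, 2.36 and 2.14 CPM (2.54, SE 0.27).

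Respiratory chain subunits had 38 of 77 lower and 9 higher, with a median of −0.84 that changed sign with total-count scaling; 5 were higher without the first total library and 4 with the other total libraries, where the median was −1.23. Ndufs8, of complex I, stood at 72.0 and 81.8 CPM against 1380, 1960 and 1990 CPM, a log2 ratio of −4.53 (SE 0.35). Regulators of mitochondrial biogenesis had 11 of 22 higher, 2 lower and a median of 0.65 (0.75 with the other total libraries); 7 were higher with either 4sU library left out. Ppargc1b, a coactivator of mitochondrial genes, stood at 28.8 and 32.3 CPM against 6.18, 3.21 and 4.89 CPM (2.68, SE 0.29). Polrmt, the mitochondrial RNA polymerase, was lower at −2.04.

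Of 17 genes of cardiolipin, the lipid of the inner mitochondrial membrane, 7 were lower and 4 higher, with a median that changed sign with total-count scaling. Prelid1, which carries its precursor phosphatidic acid, stood at 109 and 121 CPM against 2110, 2450 and 2280 CPM, a log2 ratio of −4.31 (SE 0.32). Crls1, cardiolipin synthase, was higher at 8.43 and 7.2 CPM against 1.99, 2.41 and 0.583 CPM (2.23, SE 0.46). Iron genes had 11 of 21 lower and 3 higher, also with a median that changed sign under that scaling, and 6 were lower without the second 4sU library. Among them, named after their values were seen, Tfrc, the transferrin receptor, stood at 56.9 and 75.8 CPM against 407, 509 and 250 CPM (−2.55, SE 0.36) and Ftl1, the ferritin light chain, at 176 and 139 CPM against 634, 685 and 449 CPM (−1.91, SE 0.30). Fth1, the ferritin heavy chain, had overlapping groups, at 51.6 and 42.1 CPM against 76.6, 45.3 and 71.8 CPM, and was called lower, at −0.67, without the second total library.

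Cytosolic ribosomal proteins had 48 of 80 lower and 6 higher, with a median of −1.32. Rpl4 stood at 156 and 149 CPM against 2500, 2920 and 2710 CPM, a log2 ratio of −4.15 (SE 0.32), and Rplp0 had −3.74. Rps15a, in contrast, stood at 47.3 and 49.5 CPM against 10.1, 10.5 and 7.44 CPM (2.37, SE 0.24). Without the second 4sU library the lower count was 31, the higher count was 3 with either 4sU library left out and 1 with the other total libraries, where the median was −2.03, and these genes have near-identical pseudogenes, so their counts are uncertain. Among 34 translation factors, Eif3i (−4.95), Eif3m (−4.53) and Eef1a1 (−3.50) were lower while Eif5b (2.42) and Eif3a (1.97) were higher, so subunits of 1 complex lay at both ends.

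Actin and tubulin cytoskeleton genes had 27 of 32 lower and 1 higher, with a median of −1.53; 2 were higher without the third total library or with the other total libraries. Tuba1c, an alpha-tubulin, stood at 186 and 157 CPM against 1640, 2350 and 1610 CPM, a log2 ratio of −3.45 (SE 0.33). The 1 higher member in all 5 libraries together was Actn1, alpha-actinin 1, at 1.44. Lysosomal genes had 22 of 31 lower and 2 higher, with a median of −1.57, and 1 was higher with either 4sU library left out or with the other total libraries, where the median was −1.31. Psap, prosaposin, stood at 765 and 738 CPM against 9350, 12500 and 12100 CPM (−3.91, SE 0.35). Chaperones of the endoplasmic reticulum had 9 of 20 lower and 5 higher, with a median of −0.60 that changed sign with total-count scaling. The higher count was 3 without the first total library and 1 with the other total libraries. The lowest member was P4hb, protein disulphide isomerase, at 1040 and 1040 CPM against 12400, 14100 and 34200 CPM (−4.28, SE 0.53).

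Of 34 contractile genes 17 were lower and 4 higher, with a median that changed sign with total-count scaling, and with Des, the muscle intermediate filament, at 138 and 130 CPM against 1280, 2010 and 1910 CPM (−3.70, SE 0.34). Of 23 myogenic regulators 8 were higher and 6 lower; the lower count was 3 without the first 4sU library and 2 without the second, and the median was 0.51, or 0.13 with the other total libraries. Mef2a, a muscle transcription factor, was higher at 1.59 (SE 0.27), and Cdh15, M-cadherin, was lower at −1.72 (SE 0.28). Myod1, named after its value was seen, stood at 68.3 and 56.1 CPM against 50.8, 51.6 and 50.4 CPM, a log2 ratio of 0.29 (adjusted p = 0.27), and was called higher, at 1.28, with total-count scaling. Lmod1, a leiomodin, was higher at 1.92 (SE 0.31) with the total libraries used here and had −0.57 (adjusted p = 0.085) with the other 3.

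Replication-dependent histone genes passed the filter in 50 of 61 cases, 15 of them through total RNA only, so their count of calls is no support; their median was −1.86, or −2.83 with the other total libraries. Summed over all 61 they stood at 124 and 92.3 CPM in 4sU RNA and at 438, 456 and 361 CPM in total RNA. Their messages lack poly(A) tails and lie in clusters of near-identical copies, so their counts are uncertain.

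Cell cycle genes had 22 of 40 lower and 9 higher, with a median of −0.74 that changed sign with total-count scaling. The lower count was 14 without the first 4sU library and 13 without the second or with the other total libraries, and the higher count was 5 without the first. With the other total libraries the median was −0.28. Aurkb, aurora kinase B, had −2.94 (SE 0.48). The p53 targets lay at both sides, 9 of 23 higher and 6 lower, and 4 and 5 were higher without the first and the second 4sU library. Their median was 0.23, and −0.09 with the other total libraries. Ccng1, cyclin G1, stood at 116 and 144 CPM against 2310, 2360 and 1080 CPM (−3.88, SE 0.43), while Tnfrsf10b, a death receptor, had 1.57. Zc3h10 itself was lower in 4sU RNA, at 14.2 and 13.3 CPM in 4sU RNA and at 83.0, 134 and 85.1 CPM in total RNA, a log2 ratio of −2.87 (SE 0.30, adjusted p = 3.55e-05). Its introns were at −3.44 (SE 0.30), and exons and introns did not differ beyond the threshold (0.58, adjusted p = 0.071).

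AU-rich elements, which recruit decay factors to 3′ untranslated regions, were counted in GENCODE M21 transcripts (GRCm38), as 1 of 3 motifs searched on the transcript strand. The nonamer TTATTTATT was present in 9.68% of genes at least 2-fold higher in 4sU RNA, 4.92% of those at least 2-fold lower and 7.47% of all 13657 coding genes with such a region. The pentamer ATTTA, which lies within the nonamer, occurred 2.10 times per kilobase in the first set and 1.57 times in the second, against 1.83 over all. The Pumilio element TGTANATA was present in 32.5%, 16.6% and 24.7%. These regions were also longer in the first set, with a median of 1326 bases against 778, so the ratio was also set out within 5 equal groups of region length. Genes with the nonamer had the higher median in 4 of the 5 groups, at 0.43 against −0.35, −0.15 against −0.23, 0.20 against 0.01 and 0.65 against 0.34 from the second shortest group to the longest. In the shortest group they had the lower one, −0.67 (39 genes) against −0.37. Among named genes, the nonamer was found in 14 of 116 higher and 9 of 114 lower ones, Zc3h10 among the latter. The 3 highest and 3 lowest of these are shown, with the motif in capitals and 9 bases on each side, since they place the same letters at both ends.
Zbtb34 (log2 ratio 4.53, chr2:33406939-33406965, minus strand): tggtcagggTTATTTATTaaattttat
Klf5 (3.88, chr14:99314660-99314686, plus strand): gttttatcaTTATTTATTttgtggtaa
Col10a1 (3.41, chr10:34396943-34396969, plus strand): gaaaagacaTTATTTATTtatgctctg
Sdhc (−4.30, chr1:171127632-171127658, minus strand): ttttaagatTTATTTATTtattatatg
Col2a1 (−3.84, chr15:97975818-97975844, minus strand): gtgttctatTTATTTATTgtcttcctg
Fgf21 (−3.74, chr7:45613962-45613988, minus strand): ggtttccacTTATTTATTacgggtatt
The motif is a match of letters, not a shown site. Col2a1 had 0 and 0.0973 CPM in 4sU RNA and lost its call without the first 4sU library.

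Introns gave a second readout, taken here to reflect RNA not yet spliced. Whether intronic reads came from unspliced RNA of the same gene was not tested, and overlapping or antisense genes are uncertain. Of 13835 genes tested, 3986 (28.8%) were higher in 4sU RNA and 4965 (35.9%) lower, with a median of −0.18. Among the 12224 of these whose exons also passed the filter, 3986 were higher and 3492 lower, with a median of 0.04. The other 1611, with exons below the filter, had 0 higher and 1473 lower, with a median of −3.98. Their median exonic count was 0.5 in 4sU RNA and 2 in total RNA. Through which group they passed the intronic filter was not counted. Genes kept for being high in total RNA would be lower by selection, so their direction is no support. Naca, a chaperone of nascent chains, stood at 271 and 313 CPM of intronic counts in 4sU RNA against 33.1, 31.9 and 35.0 CPM in total RNA, a log2 ratio of 3.13 (SE 0.14). S100a11, a calcium-binding protein, had 2.75 in introns and −1.32 in exons. Zfp68 (3.03), Tmem168 (2.63) and Psmc2, a proteasome ATPase (2.47), complete the 5 named. Scaling by total counts moved the intronic median by −0.40 and left 2378 genes called higher.

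At the low end of the introns, 1 gene had almost no exonic reads and another had exons below the filter. Mef2b, a relative of the muscle Mef2 factors, had intronic levels of 9.11 and 6.58 CPM in 4sU RNA and of 170, 179 and 254 CPM in total RNA (−4.67, SE 0.26), while its exons had no read in 4sU RNA and at most 0.472 CPM in total RNA. Asic2, a neuronal ion channel, was at 2.56 and 7.31 CPM against 67.5, 96.8 and 129 CPM (−4.34, SE 0.45), and its exons were below the filter. AI413582 had −4.50. Ubl4a (−4.06) and Plekhj1 (−4.04) were lower in introns than in exons, where they had −1.63 and −1.29. Among 18824 genes with an intron entry, the 4926 whose exons were below the filter held 0.396% and 0.460% of intronic counts in 4sU RNA and 1.33%, 1.70% and 2.28% in total RNA, with no overlap.

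The 2 readouts were also set against each other. The exonic ratio was called above the intronic one for 3483 (28.5%) of 12224 genes and called below it for 3626 (29.7%). Of the 5 genes named below it, 4 were called higher in introns and all 5 were called lower in exons. Mrps21 stood at 29.1 and 25.8 CPM in introns of 4sU RNA against 14.3, 13.1 and 17.0 CPM in total RNA, so its introns were higher and its exons lower, a difference of −6.66 (SE 0.38, adjusted p = 5.14e-06). Fopnl (−5.74), Polr1d, a subunit of RNA polymerases I and III (−5.50), Tmem242 (−5.29) and Tusc3, an oligosaccharyltransferase subunit (−5.28), followed; the introns of Tmem242 did not pass the threshold (0.30, adjusted p = 0.11).

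Above it was Taf1d, a factor of RNA polymerase I that hosts small nucleolar RNAs, with a difference of 4.49 (SE 0.25). Intronic levels of Taf1d were 80.1 and 89.6 CPM in 4sU RNA against 785, 1240 and 619 CPM in total RNA, while its exons were at 66.6 and 77.4 CPM against 32.8, 38.0 and 26.1 CPM. Ptgs2, cyclooxygenase 2, had exons at 658 and 860 CPM against 168, 144 and 170 CPM and introns at 91.0 and 95.7 CPM against 287, 250 and 268 CPM, a difference of 3.76 (SE 0.24). Atn1 (4.29), Syn3, a synapsin (4.22), and Rbak (3.93) complete the 5. With total-count scaling 7840 genes were called above and 1082 below.

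**Figure D5:**
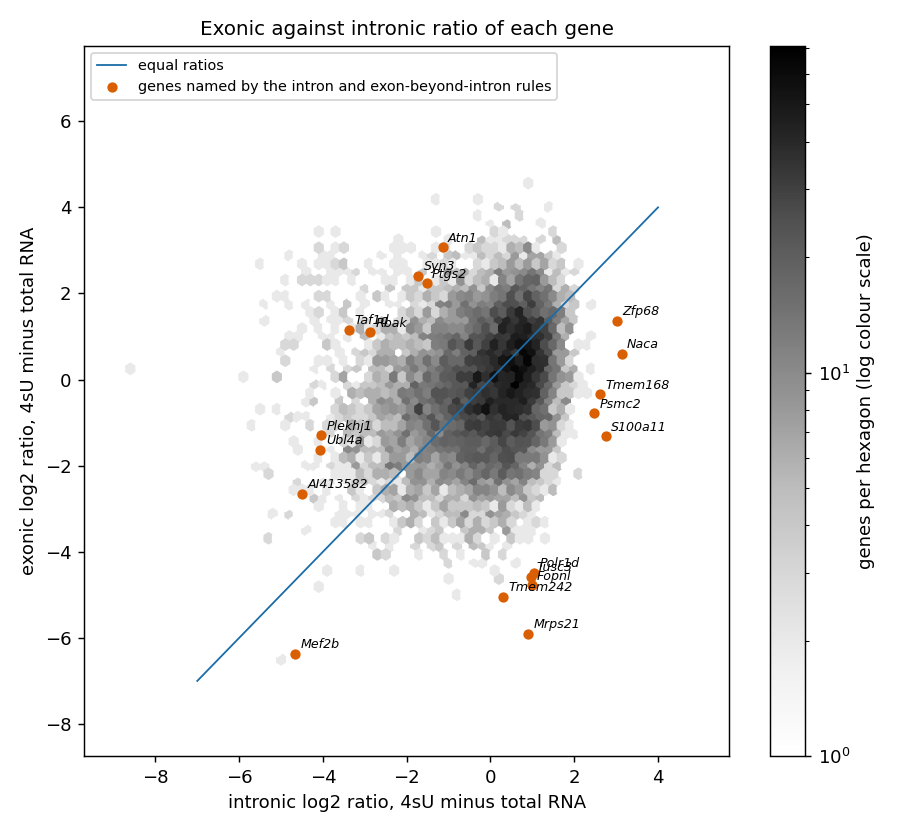
Exonic (y axis) against intronic (x axis) log2 ratio of 4sU to total RNA for 12224 genes, as hexagons shaded by the number of genes on a log colour scale, with the line of equal ratios and the named genes as points. Mrps21, Fopnl, Polr1d, Tmem242 and Tusc3 lie at the bottom right, below the line, and Taf1d, Rbak, Syn3, Ptgs2 and Atn1 at the upper left, above it.

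Lists with low exonic medians differed in their intronic medians. The tricarboxylic acid cycle list had −1.51 in exons and 0.41 in introns, where 10 of 23 were higher and 6 lower. Lysosomal genes had −1.57 and 0.04, and glycolytic genes −1.43 and 0.02. Cytosolic ribosomal proteins had −1.32 in exons and −1.0 in introns, with 0 of 76 higher and 37 lower in introns. Immediate early factors had a median of 1.21 in exons, over 33 members, and of −0.37 in introns, over 26. In introns 3 of the 26 (11.5%) were higher and 8 (30.8%) lower. Over the same 26 the exonic ratio minus the intronic one had a median of 1.29. Some had few intronic counts, as Fos with 30 and 8 in 4sU RNA and 19, 18 and 8 in total RNA. Of all genes tested in introns 28.8% were called higher and 35.9% lower. The exons of all 26 also passed the filter, and of the 12224 such genes 3986 were higher and 3492 lower in introns. Decay-promoting RNA-binding factors were high in both, at 1.39 and 0.95.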

How the data were processed

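Raw read counts per gene, over exons and over introns, were deposited by the authors; the submitters' processing notes list mm9, TopHat2 2.0.8 and TopHat. Neither the counter nor its annotation or strand setting is stated in the sources used here, so overlapping, antisense and multi-copy genes are uncertain. Counts were filtered with filterByExpr (minimum count 10, minimum total 15), scaled by TMM (trimmed mean of M values), expressed as CPM and tested with edgeR 4.0.16 in R 4.3.3; exons beyond introns was an interaction over 10 columns with library as a block. Adjusted p-values are Benjamini-Hochberg over all genes tested, and SE was taken from the F statistic. On simulated data of this size with 200 genes changed, 28.6% of 2-fold and 83.0% of 4-fold exonic changes were recovered. Far more genes were called in the data, so these shares may not carry over.

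Members and lists were chosen with earlier results of these data known, and list counts support nothing beyond their description. Named genes were the 12 (exons) or 5 (introns, exons beyond introns) largest ratios each way among called, non-overlapping genes at or above the median level, excluding small RNA and clone symbols, up to 3 each way per list, and Zc3h10. For 1 of the 12 higher genes the values are not reported here. The comparisons by length, motif and filter, and list medians taken relative to all genes, were added after results were seen. Sequences and lengths come from GENCODE M21 and RefSeq (GRCm38), matched by Entrez ID for 95.6% of exonic genes; no coordinate was mixed with mm9. The alternatives were RLE and total-count scaling, DESeq2 1.42.0, limma 3.58.1 (voom with sample weights), no filter, all 11 libraries, the other total libraries, a replicate block and each library left out.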

Additional observations from a re-analysis of the deposited data

How the results depend on the processing

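With total-count scaling, without TMM, 7759 genes were called higher and 1843 lower in exons, 2378 higher in introns, and 7840 above and 1082 below for exons beyond introns. It moved the median of all genes by 0.99 in exons, −0.40 in introns and 1.39 for exons beyond introns. The medians of 15 of 43 lists, those between −0.88 and −0.16, then changed sign; relative to the median of all genes, which removes a common shift by construction, 0 of the 43 moved by more than the spread over library pairs. Under it Dusp7 (0.041), Hey1 (0.044), Notch1 (0.22), Per3 (0.33), Bcl2l1 (0.36), Zbtb2 (0.23) and Zbtb40 (0.36) changed sign from negative to positive, Zfp36 (1.02) was called higher, and with the other total libraries Hey1 (0.21), Bcl2l1 (0.012) and Lmod1 (−0.57) changed sign. Of 86 list counts 61 moved by more than 1.5 times. The cause of these changes was not tested. With 1 library left out, genes above for exons beyond introns ranged from 2074 to 3655, and all exonic calls from 5933 to 9810. The replicate block gave 4824 higher and 4935 lower in exons and 4169 and 5140 in introns. No scramble 4sU library carries the number of the third total library, so in that fit this library does not inform the ratio. The block is thus not a check separate from leaving that library out. Leaving it out gave 4926 higher and 4884 lower in exons and 4654 and 5030 in introns. The labels do not say that equal numbers mark a harvest. The deviations of equal numbers correlated at −0.00025 in exons and 0.13 in introns. RLE scaling, voom, no filter and all 11 libraries left the counts over all genes within 1.5 times, as did DESeq2 for exons and introns (it was not run for exons beyond introns); of the 86 list counts 0 moved by more under RLE, 2 under DESeq2, 9 under voom, 3 with no filter and 3 with all 11 libraries. With the other total libraries 21 of the 43 list medians moved by more than that spread, and with no filter 36. In simulated data with 200 genes changed, 28.6% of 2-fold changes were recovered in exons, 53.7% in introns and 10.4% for exons beyond introns. Far more genes were called in the data, and the Benjamini-Hochberg cutoff depends on that number, so these shares may not carry over. A gene without a call is still not shown to be unchanged.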
